A study of Mus musculus with 3 samples.

Results

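The 10 genes described here hold or release the G1 brake of the cell cycle: the CDK inhibitors Cdkn1a, Cdkn1b, Cdkn1c, Cdkn2a and Cdkn2c, the kinases Cdk4 and Cdk6, and the D-type cyclins Ccnd1, Ccnd2 and Ccnd3. They were chosen by function, 10 of 21911 protein-coding genes. The cells were long-term hematopoietic stem cells (LT-HSCs) of 24-month-old C57BL/6 females, which the labels give as wild type and the study's methods as C57BL6/J. c-Kit enriched marrow had been sorted for lineage-negative cells with Sca-1, c-Kit and CD150 and without CD48 or CD34. In DOGMA-seq each cell yields an open chromatin (ATAC), an RNA and an antibody tag readout, here as 3 libraries of 1 pool, so that no group had a replicate and no test between groups of cells was possible. Expression of single genes was not analysed here, and the total RNA count of a cell served only to order the cells. All values below are therefore accessibility, and their 95% intervals cover counting error only.

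D-type cyclins bind Cdk4 or Cdk6, and the active pair phosphorylates the retinoblastoma protein, which frees E2F factors to switch on genes of DNA replication. INK4 inhibitors, to which the products of Cdkn2a and Cdkn2c belong, bind Cdk4 and Cdk6 directly, whereas the Cip/Kip inhibitors encoded by Cdkn1a, Cdkn1b and Cdkn1c bind cyclin-CDK complexes. Most LT-HSCs rest outside the cycle, Cdkn1c is known as a gene that keeps them there, and low Cdk6 is a known feature of their deep quiescence.

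Of 4369 called cells, 3724 had antibody counts and 3629 had at least 10 summed antibody tags; these 3629 were kept. They held 38498362 nuclear fragments, with a median of 10287 per cell (3853 to 45069), a median of 1978 RNA UMIs and a median of 29 tags. In 270 kept cells (7.44%), more autosomal sites were covered by 3 or more fragments than expected from the mean over all cells. The depth of each cell did not enter that expectation. The window ratios of Cdk6, Ccnd1, Cdkn1a, Cdkn1b, Cdkn1c and Cdk4 that left out 0 between quartile groups are given below also without these cells. So are those of Cdk6 by other antibodies. The sort was checked by promoter accessibility: 5 of 9 HSC markers lay above the median gene, led by Kit and Mecom, against 3 of 5 megakaryocyte, 1 of 5 erythroid, 0 of 6 myeloid, 0 of 5 macrophage, 1 of 5 B cell and 0 of 5 T cell markers. No marker promoter was at 0.

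Promoter accessibility was counted as fragments over 1 kb on each side of the gene start, per 1000000 nuclear fragments (FPM) and per kb, and 8 of the 10 genes lay above the median gene at 5.24 FPM per kb, though Cdkn2a, at 5.27 (4.77 to 5.81), could not be separated from it. The highest was Cdk4 at 34.5 (33.2 to 35.8), followed by Ccnd2 at 26.8 (25.7 to 28.0). The next pair, Cdkn1b at 19.7 (18.8 to 20.7) and Cdkn1c at 18.0 (17.1 to 19.0), had overlapping intervals, and their difference was not tested. The intervals of Cdkn2c at 15.9 (15.0 to 16.8) and Cdk6 at 15.5 (14.7 to 16.4) also overlapped. Below these came Ccnd1 at 8.37, Cdkn2a, Ccnd3 at 3.76 and Cdkn1a at 0.44, and no interval of these 4 overlapped that of its neighbour. The order changed over the gene window, the annotated gene with 2 kb upstream: Cdk4 stayed highest at 11.3, Cdkn1a stood at 5.85, and Cdk6, spread over 191.5 kb, was lowest at 0.78.

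**Figure D1:**
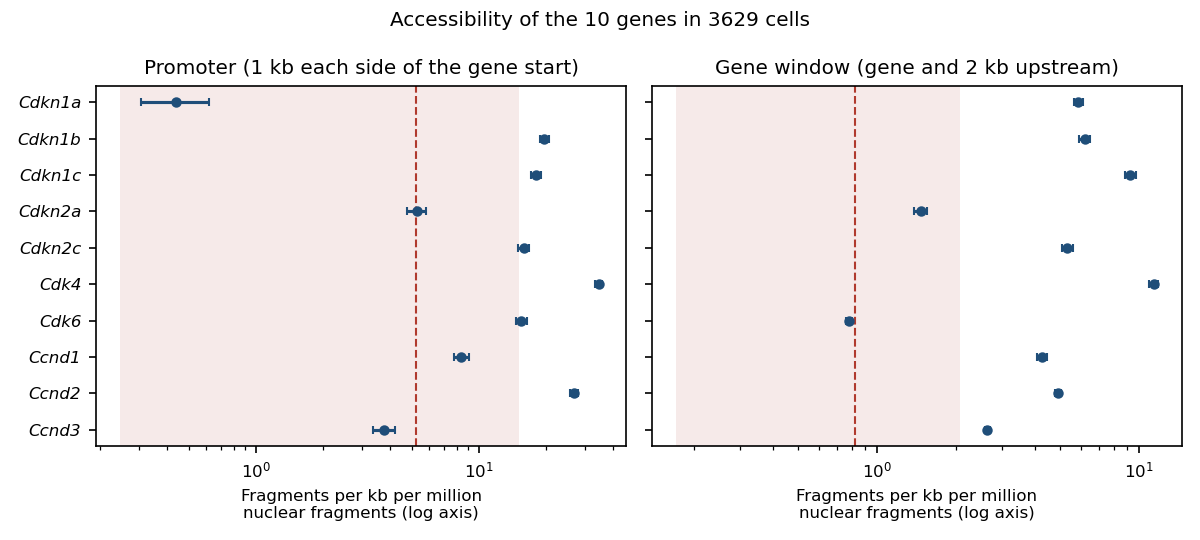
FPM per kb over promoters (left) and gene windows (right) of the 10 genes in 3629 cells, on log axes; points are levels, bars 95% Poisson intervals, the dashed line the median of 21911 genes and the shaded band its quartiles. Cdkn1a was lowest over its promoter at 0.44 but stood at 5.85 over its window, and Cdk6 was lowest over its window at 0.78.

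Among the Cip/Kip inhibitors, Cdkn1a, the p53 target that arrests damaged cells, was open away from its outermost start. Only 15 fragments fell within 500 bp of that start, 698 within 500 bp of the annotated start 2.79 kb downstream, and 52 around a further start 6.92 kb downstream. The tallest point of the locus lay elsewhere again, in an intron 4.55 kb from the outermost start, inside an open site of 2850 bp (chr17:29093301-29096150, mm10) that held 2343 fragments from 1598 cells. The promoter level given above belongs to the outermost start. The promoter sequences of both starts, from RefSeq on GRCm38, are shown because they set the closed start beside the open one, with any searched motif in capitals. The first window (chr17:29090729-29091028, plus strand) held 11 fragments and 2 CpG, and the second (chr17:29093519-29093818, plus strand) held 563 fragments and 23 CpG.
Cdkn1a, outermost start: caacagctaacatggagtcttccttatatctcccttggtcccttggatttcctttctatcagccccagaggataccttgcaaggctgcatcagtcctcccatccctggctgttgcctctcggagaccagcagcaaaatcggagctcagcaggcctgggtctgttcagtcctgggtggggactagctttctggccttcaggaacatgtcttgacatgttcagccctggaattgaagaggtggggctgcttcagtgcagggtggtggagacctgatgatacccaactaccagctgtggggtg
Cdkn1a, start 2.79 kb downstream: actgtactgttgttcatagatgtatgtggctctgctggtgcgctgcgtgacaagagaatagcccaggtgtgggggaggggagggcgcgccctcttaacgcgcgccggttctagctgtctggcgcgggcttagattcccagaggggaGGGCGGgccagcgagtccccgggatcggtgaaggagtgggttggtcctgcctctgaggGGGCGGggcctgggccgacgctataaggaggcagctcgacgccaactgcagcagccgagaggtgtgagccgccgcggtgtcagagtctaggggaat
The closed window contained none of the 12 motifs searched on both strands, and the open one contained GGGCGG, the GC box, at 2 places. GGGCGG occurred in 35.7% of all 32841 promoters searched.

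Cdkn1b, which holds cyclin E with Cdk2 inactive, and Cdkn1c had a simpler layout. For Cdkn1b a single open site of 1950 bp spanned the start and took 89.4% of the window's 1696 fragments. Its RefSeq promoter contained CCAAT, the NF-Y box, at 3 places, and CCAAT was found in 37.4% of all promoters. Cdkn1c had a site of 1900 bp at its start with 1424 fragments and a weak exonic site 1.02 kb downstream with 223. Short fragments, no longer than the DNA wrapped around a nucleosome, made up 51.9% of Cdkn1c promoter fragments and 36.1% of those of Cdkn1b. The median over 13112 promoters was 38.0%, which the Cdkn1c promoter exceeded.

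Of the INK4 genes, Cdkn2a was the less open. This locus encodes p19Arf, which restrains Mdm2, from an upstream start and p16Ink4a from a start 12.5 kb downstream. The p19Arf start held 310 fragments within 500 bp (8.04 FPM per kb, 7.17 to 8.99) and the p16Ink4a start 108 (2.80, 2.30 to 3.38). The Cdkn2a promoter level given above belongs to the p19Arf start. Only 43.1% of the fragments of the Cdkn2a window lay in open sites, against a median of 76.2% over 16090 genes. The called site at the p16Ink4a start (chr4:89282001-89282300) was taller than just 0.58% of all 55758 sites. Promoter sequences of the more and the less open start, both on the minus strand, are given below (chr4:89294570-89294869 with 168 fragments, and chr4:89282143-89282442 with 64 fragments).
Cdkn2a, p19Arf start: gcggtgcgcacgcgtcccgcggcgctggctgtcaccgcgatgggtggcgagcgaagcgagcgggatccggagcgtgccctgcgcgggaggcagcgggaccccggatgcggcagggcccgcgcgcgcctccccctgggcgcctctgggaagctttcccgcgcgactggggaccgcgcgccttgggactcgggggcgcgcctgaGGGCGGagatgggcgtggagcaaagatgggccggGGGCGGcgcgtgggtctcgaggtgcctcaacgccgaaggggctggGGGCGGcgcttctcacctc
Cdkn2a, p16Ink4a start: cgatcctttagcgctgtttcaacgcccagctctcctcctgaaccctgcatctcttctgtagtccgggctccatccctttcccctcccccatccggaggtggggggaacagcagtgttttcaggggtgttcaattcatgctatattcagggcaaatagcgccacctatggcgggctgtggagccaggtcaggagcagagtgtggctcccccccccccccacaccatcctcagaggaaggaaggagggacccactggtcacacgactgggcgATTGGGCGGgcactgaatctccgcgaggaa
The p19Arf window was 77.0% G and C with 45 CpG, the p16Ink4a window 60.3% with 12 CpG, and the median promoter 52.7% with 7 CpG. Capitals mark 3 copies of GGGCGG in the first, and in the second a CCAAT box on the opposite strand that overlaps a GGGCGG.

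Cdkn2c, encoding p18Ink4c, carried 1 open site of 2450 bp with 1577 fragments that covered both of its annotated starts. The outer start held 1106 fragments within 500 bp and the inner start, 1.82 kb downstream, held 354. The summit lay 0.36 kb inside the gene, in an exon. In accessibility Cdkn2c was much nearer to Cdkn1b than to Cdkn2a.

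Cdk4 was the most open of the 10 genes. Its single site of 1450 bp (chr10:127063001-127064450) was taller than 98.8% of all sites and held 2627 fragments from 49.2% of cells, and 56.9% of its promoter fragments were short. The window overlaps Tspan31, whose fragments cannot be told apart from those of Cdk4 there. The promoter sequence (chr10:127063285-127063584, plus strand, 1887 fragments) is shown for its repeated E boxes.
Cdk4: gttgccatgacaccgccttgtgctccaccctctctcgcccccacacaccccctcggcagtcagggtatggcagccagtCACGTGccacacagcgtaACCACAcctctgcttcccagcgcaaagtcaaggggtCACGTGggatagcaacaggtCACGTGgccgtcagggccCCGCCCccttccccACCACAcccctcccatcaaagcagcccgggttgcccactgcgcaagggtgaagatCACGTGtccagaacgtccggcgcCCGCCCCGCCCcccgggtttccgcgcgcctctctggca
Capitals mark CACGTG, the E box bound by Myc and Max, at 4 places, along with GGGCGG at 3 places, a pair of which overlap, and TGTGGT, the Runx motif, at 2 places. CACGTG occurred at least once in 7.15% of all promoters and at least 4 times in 8 of 32841 (0.024%). This repeat was noticed after the sequences had been searched.

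Cdk6, the partner of D cyclins whose level sets how readily stem cells leave quiescence, had a broad promoter site and a thinly covered body. The site at the start was 4100 bp wide (chr5:3340751-3344850), with 1961 fragments from 39.1% of cells. A further 7 sites lay in introns, and all sites together covered 3.21% of the window. The tallest intronic site (chr5:3494401-3494850) had its summit 150.6 kb from the start, held 242 fragments from 6.12% of cells and was taller than 65.2% of sites. Its 300 bases around the summit contained the Gata motif GATAA and the Runx motif TGTGGT once each. Counted alone, each of these motifs was found around 24.6% of 55751 site summits. The AP-1 motif TGACTCA was also present, found around 8.78% of summits. More fragments of the Cdk6 window lay outside open sites (2939) than inside (2798), which bears on the comparisons below.

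The D cyclins differed in where they were open. Ccnd1 had 4 sites, of which the start held 542 fragments, an intronic site 2.19 kb downstream 669 and another upstream of the start 459. Ccnd2 had the widest site of the set, 4750 bp (chr6:127149051-127153800) with 3897 fragments from 61.5% of cells, whose summit lay 1.47 kb upstream of the start. The windows of Ccnd1 and Ccnd2 also overlap LTO1 and antisense genes, respectively. Outside the cyclins, antisense genes overlap the windows of Cdk6 (Gm17590 and Gm42435) and Cdkn1c (Gm44732), and AC167363.2 overlaps that of Cdkn1a.

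Ccnd3 was weakly open at its outermost start and strongly open at 3 places inside the gene. The start site held 188 fragments, against 1212 at an intronic site 3.07 kb downstream and 1275 at another 6.22 kb downstream (chr17:47510751-47512000), which was taller than 94.2% of sites. A site of 3700 bp around 2 annotated starts, 88.4 and 91.0 kb downstream, held 3120 fragments from 54.1% of cells. The downstream end of the gene overlaps Bysl, and the fragments of the overlap were not separated. Shown are the promoters of the outermost start (chr17:47504801-47505100, 167 fragments) and the start 88.4 kb downstream (chr17:47593217-47593516, 802 fragments), and 300 bases around the summit 6.22 kb downstream (chr17:47511126-47511425, 1104 fragments), all on the plus strand.
Ccnd3, outermost start: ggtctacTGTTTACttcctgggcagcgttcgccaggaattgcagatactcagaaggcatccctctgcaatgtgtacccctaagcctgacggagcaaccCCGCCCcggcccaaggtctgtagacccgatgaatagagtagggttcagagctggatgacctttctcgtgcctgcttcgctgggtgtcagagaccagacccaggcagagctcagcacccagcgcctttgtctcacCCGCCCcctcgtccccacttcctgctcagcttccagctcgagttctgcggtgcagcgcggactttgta
Ccnd3, start 88.4 kb downstream: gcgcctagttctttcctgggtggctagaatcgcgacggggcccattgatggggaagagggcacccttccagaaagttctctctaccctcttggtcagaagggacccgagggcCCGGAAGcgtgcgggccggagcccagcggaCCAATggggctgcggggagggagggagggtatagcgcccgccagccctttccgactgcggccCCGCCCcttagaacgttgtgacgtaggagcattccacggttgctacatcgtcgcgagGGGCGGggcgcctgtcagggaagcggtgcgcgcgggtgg
Ccnd3, intronic site 6.22 kb downstream: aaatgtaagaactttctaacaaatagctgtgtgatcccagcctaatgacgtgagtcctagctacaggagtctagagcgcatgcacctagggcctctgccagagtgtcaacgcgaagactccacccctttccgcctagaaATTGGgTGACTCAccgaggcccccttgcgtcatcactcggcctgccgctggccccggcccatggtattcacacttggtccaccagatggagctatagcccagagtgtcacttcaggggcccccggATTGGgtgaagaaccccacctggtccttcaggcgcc
The outermost start carried TGTTTAC, a forkhead motif found in 3.65% of promoters, and 2 copies of GGGCGG. The downstream start carried CCGGAAG, an Ets motif found in 8.86% of promoters, with CCAAT once and GGGCGG 2 times. The intronic site carried TGACTCA once, beside 1 of its 2 CCAAT boxes.

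**Figure D2:**
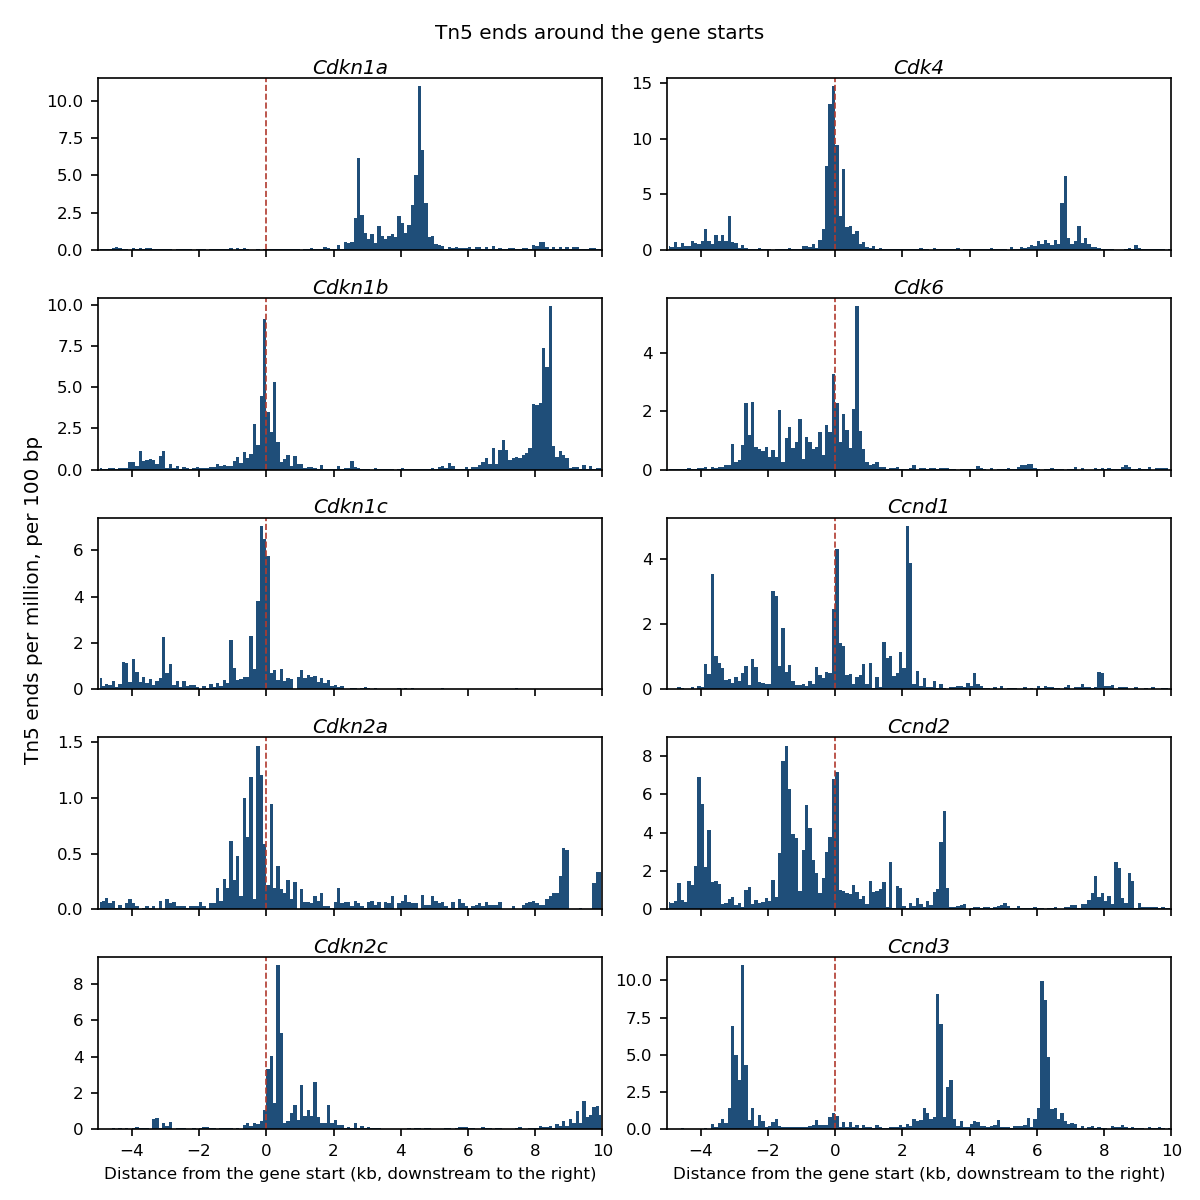
Transposase (Tn5) cut ends per 1000000 fragments and 100 bp, from 5 kb upstream to 10 kb downstream of each gene start (dashed line), with a separate y axis for each gene. Within their windows, Cdk4, Cdkn1b and Cdkn1c peaked at the start, Cdkn1a 4.55 kb inside and Ccnd3 downstream of its start. The tall peaks toward the right edge for Cdkn1b, Cdkn2c and Cdk4, and the one upstream of Ccnd3, lie outside the windows.

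**Figure D3:**
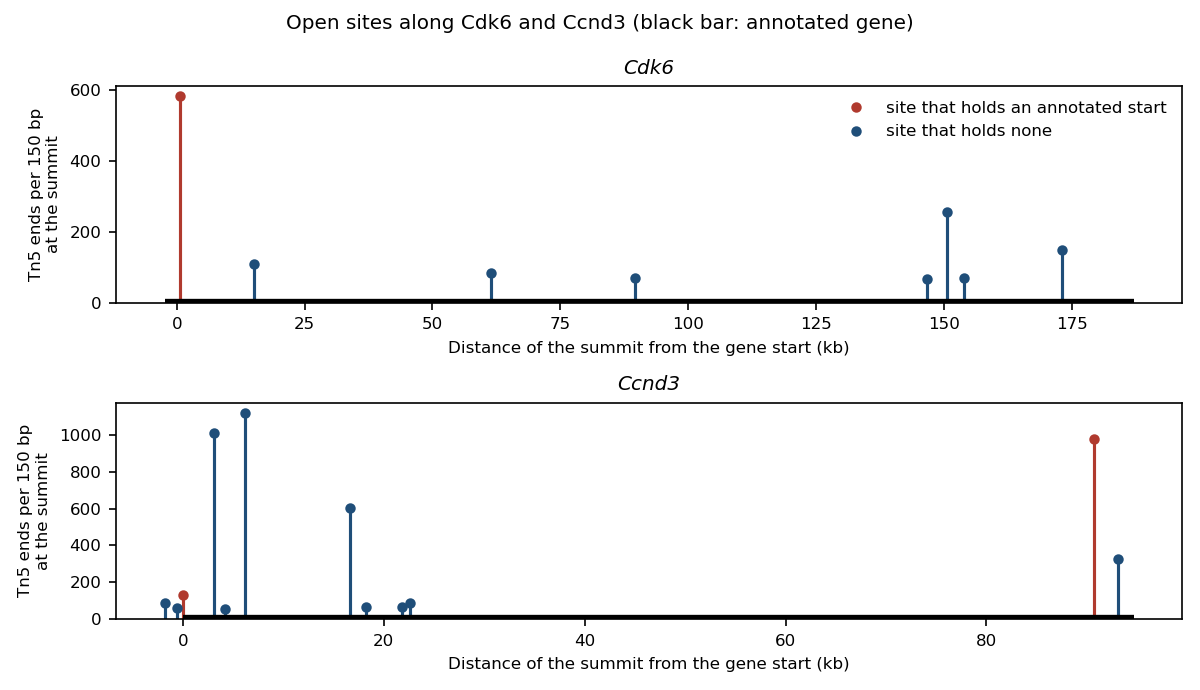
Open sites along Cdk6 (top) and Ccnd3 (bottom), placed by the distance of their summit from the gene start in kb, with height as Tn5 ends per 150 bp; red sites hold an annotated start and blue sites do not. Cdk6 had 8 sites, 7 of them intronic, and Ccnd3 had 12, with the tallest 6.22 kb from the start.

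Over all 10 windows there were 38 open sites, of which 12 held an annotated start and 20 were intronic without one. The share of cells with a window fragment ran from 27.4% for Cdkn2a to 88.8% for Ccnd3. At the depth of each cell, an even spread of fragments would have given 28.8% and 90.9%. The largest gap was that of Cdk6, seen in 72.6% of cells against 76.9% at an even spread. The variance of its counts over cells was 1.31 times that of a Poisson count at these depths, and 1.04 times for Cdk4, the lowest.

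The antibody panel contained CD274, an immune checkpoint ligand that supplied 67.5% of all tags, and cells were compared across quartile groups of its count. From the lowest to the highest quartile there were 877, 892, 923 and 937 cells, with median CD274 counts of 9, 15, 22 and 34. Between the lowest and the highest, median tags of all antibodies rose from 17 to 46, and those other than CD274 from 8 to 11. No gene of the 10 differed by 1.3-fold over its window between the highest and the lowest quartile, against 2.25% of 14876 genes tested. The intervals of Cdk6 and Ccnd1 left out 0 on the log2 scale, 2 of 10 against 14.4% of all genes. The median log2 ratio was -0.04 for the 10 genes and -0.00 for all genes.

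Cdk6 fell over the quartile groups of CD274, at 161.2, 155.3, 142.6 and 138.5 window FPM, a log2 ratio of -0.22 (-0.32 to -0.11). Each step was downward. The difference lay outside open sites, where the log2 ratio was -0.42 (-0.56 to -0.27), past 1.3-fold as 1 of 4 genes with enough fragments there, against 9.32% of 6322 genes, whose median was -0.10. In its open sites the ratio was 0.00 (-0.15 to 0.16), and over the promoter it was 0.20 (-0.04 to 0.44). Counted as cells with at least 1 fragment, the window ratio was -0.06 (-0.22 to 0.10). This count is a coarse measure here, as 72.6% of all kept cells had such a fragment. The share of all fragments in open sites was 63.1% in the lowest and 65.3% in the highest quartile, and its part in the Cdk6 difference was not tested.

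Ccnd1 went the same way over window and promoter alike. Its promoter held 19.7, 17.3, 15.7 and 14.6 FPM from the lowest to the highest quartile, a log2 ratio of -0.43 (-0.75 to -0.11). Cdkn1a and Ccnd3 had too few promoter fragments for this comparison. Ccnd1 was the 1 promoter of the other 8 that passed 1.3-fold, against 3.12% of 11064 promoters, and the 1 of 8 whose interval left out 0, against 10.5%. Its window ratio was -0.26 (-0.44 to -0.08), and -0.20 (-0.39 to -0.01) in open sites. Among its 4 sites, the one at the start gave -0.44 (-0.79 to -0.09), and the intervals of the other 3 held 0.

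Cdk4 had a ratio of 0.16 (0.00 to 0.32) in open sites, with 63.1, 70.0, 69.1 and 70.5 FPM over the quartile groups, and 0.12 (-0.03 to 0.28) over its window. In open sites, 2 of 10 genes, Cdk4 and Ccnd1, had an interval that left out 0, against 13.7% of all genes. For Cdkn1a, Cdkn1b, Cdkn1c, Cdkn2a, Cdkn2c, Ccnd2 and Ccnd3 the window ratios lay between -0.13 and 0.08 and every interval held 0. With groups split at the median of CD274, Cdkn1b and Cdkn2c each stood at -0.15 (-0.29 to -0.01), and in cells with at least 50 tags Ccnd3 stood at 0.28 (0.04 to 0.52). The narrowest of these, Ccnd3 at 0.01 (-0.07 to 0.09) and Ccnd2 at 0.01 (-0.10 to 0.12), lay within 1.3-fold on both sides in the quartile comparison.

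Cells with excess overlaps made up 6.27% of the lowest and 13.7% of the highest CD274 quartile, and without them the window ratios of Cdk6 and Ccnd1 were -0.24 (-0.36 to -0.12) and -0.32 (-0.53 to -0.12). Summed erythroid marker promoters fell from 38.2 to 26.7 FPM over the quartile groups, and HSC marker promoters stood at 189.9 and 194.1. In the lowest and highest quartile, megakaryocyte markers stood at 63.7 and 60.2, myeloid at 10.5 and 9.29 and macrophage at 16.5 and 14.6. B cell markers stood at 20.5 and 23.9 and T cell markers at 4.81 and 6.58. Of the erythroid markers, 1 of 5 lay above the median gene. The part of the marker lists in the Ccnd1 and Cdk6 ratios was not tested.

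Total RNA per cell, known to be low in resting cells and raised in cells that prepare to divide, served as the other axis. Whether it ordered these cells by cycling was not tested. Quartile groups by RNA UMIs held 907, 907, 910 and 905 cells with median UMIs of 1468, 1805, 2148.5 and 2811. Again no window differed by 1.3-fold between the highest and the lowest quartile, against 3.64% of 14923 genes, and 5 of 10 intervals left out 0, against 21.7%. The 5 were Cdk6 and Cdkn1b, higher in RNA-rich cells, and Cdkn1a, Cdkn1c and Cdk4, lower there. Chromatin as a whole differed between these quartile groups: median fragments rose from 9102 to 12104, the share in open sites fell from 66.7% to 62.1%, and cells with excess overlaps rose from 1.43% to 22.7%. The median log2 ratio of all promoters was -0.11, and scaling by promoter fragments added 0.11 to the ratio of every gene. From the lowest to the highest RNA quartile, summed marker promoters went from 60.3 to 67.8 FPM for megakaryocytes and from 29.6 to 33.9 for erythroid cells. They went from 197.4 to 183.9 for HSCs, from 4.35 to 6.23 for T cells and from 13.4 to 15.4 for macrophages. For B cells they went from 25.3 to 26.4 and for myeloid cells from 10.0 to 10.1. The part of these marker lists in the ratios below was not tested.

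**Figure D4:**
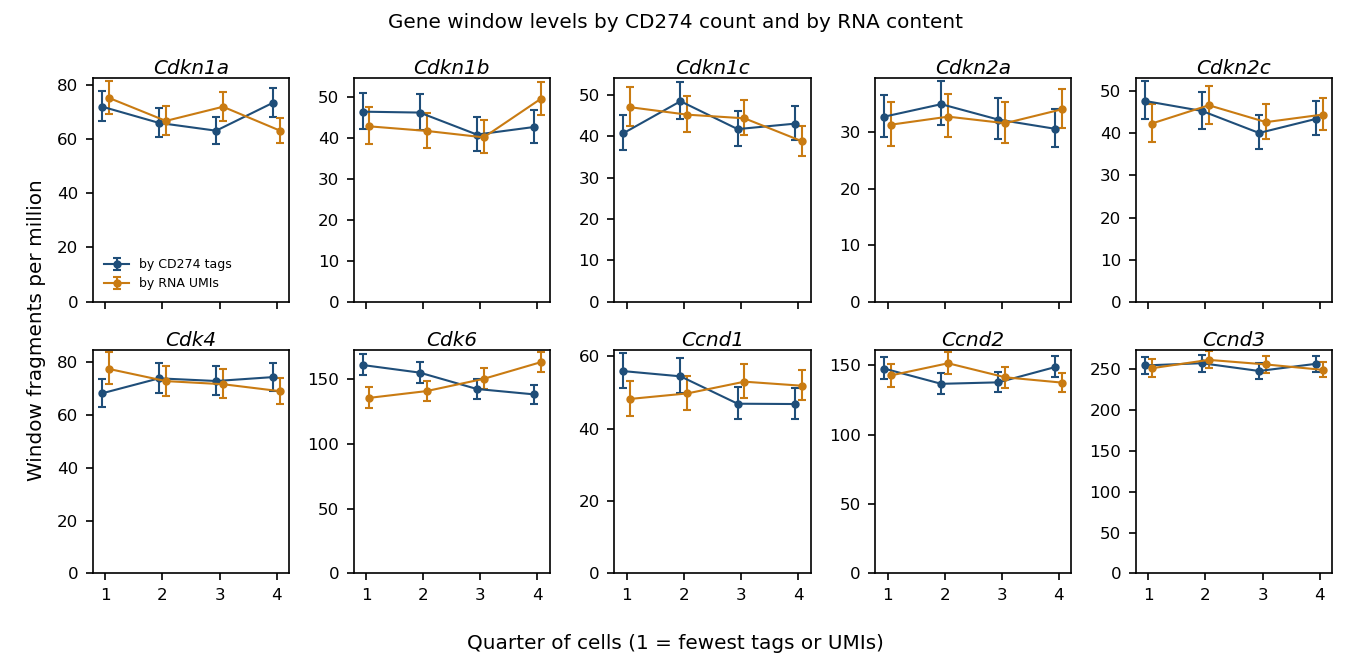
Gene window FPM in quartile groups of cells by CD274 tags (blue) and by RNA UMIs (orange), with 95% Poisson intervals, for the 10 genes. Cdk6 fell over the CD274 quartile groups and rose over the RNA quartile groups, while Ccnd3 stayed between 248.2 and 261.8 in all of them.

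Cdk6 rose over the RNA quartile groups, at 135.8, 141.0, 150.5 and 163.4 window FPM, a log2 ratio of 0.27 (0.16 to 0.37). Without cells with excess overlaps it was 0.27 (0.16 to 0.39). Scaled by promoter fragments, which raised every gene alike, it was 0.38, just past 1.3-fold, as were 6.62% of all genes under that scaling. As with CD274, the difference lay outside open sites, at 0.52 (0.37 to 0.68), where the median of 6483 genes was 0.17. In open sites it was 0.00 (-0.16 to 0.15), and over the promoter 0.01 (-0.23 to 0.25). Counted as cells with a fragment, the window ratio was -0.04. That count has limited room to rise, as 72.6% of all kept cells had a Cdk6 window fragment. By RNA UMIs per ATAC fragment the window ratio was 0.09 (-0.02 to 0.20), with an interval that held 0. Over 14 alternatives of cell filter, region, scaling and grouping the Cdk6 ratio ran from -0.04 to 0.52, and 9 intervals left out 0. Its value within bins of ATAC depth is not given here. Outside open sites, 2 of the 4 genes with enough fragments, Cdk6 and Ccnd2 (0.49, 0.07 to 0.93), passed 1.3-fold against 16.6% of all genes.

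Cdkn1c, the inhibitor most tied to stem cell quiescence, had a lower promoter level in the RNA-richest quartile. Its promoter held 39.4, 38.4, 37.0 and 31.2 FPM from the RNA-poorest to the RNA-richest quartile, a log2 ratio of -0.34 (-0.55 to -0.12). The lower level lay mainly in the highest quartile. Over the window the ratio was -0.28 (-0.47 to -0.08). When quartile groups were drawn within 10 bins of ATAC depth it was -0.03 (-0.23 to 0.16), so that the difference was not detectable at matched depth. By RNA UMIs per ATAC fragment the direction turned, at 0.05 (-0.15 to 0.25).

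Cdkn1a and Cdk4 gave window ratios of -0.25 (-0.41 to -0.10) and -0.17 (-0.32 to -0.01). Within bins of ATAC depth these were -0.08 (-0.24 to 0.08) and -0.10 (-0.25 to 0.06), and by RNA UMIs per ATAC fragment they were 0.07 and 0.03, with intervals that held 0 throughout. Without cells with excess overlaps they were -0.19 (-0.35 to -0.02) and -0.21 (-0.38 to -0.05), and Cdkn1c stood at -0.30 (-0.52 to -0.09). Cdkn1b went the other way from its family members, at 42.9, 41.8, 40.2 and 49.7 window FPM. The highest quartile had the highest value, but its interval (45.7 to 53.9) overlapped those of the lowest and the next one. The log2 ratio was 0.21 (0.02 to 0.41). Without cells with excess overlaps the Cdkn1b ratio was 0.12 (-0.09 to 0.33), and within depth bins 0.15 (-0.05 to 0.34).

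Over promoters, 3 of 8 genes had an interval that left out 0, against 23.6% of all promoters, and none passed 1.3-fold, against 3.51%. These were Cdkn1b at 0.21 (0.01 to 0.42), Cdkn1c, and Cdk4 at -0.20 (-0.35 to -0.04). In open sites they were 4 of 10, against 24.9% of all genes, with Cdkn1a added at -0.25 (-0.42 to -0.09). The window intervals of Cdkn2a, Cdkn2c, Ccnd1, Ccnd2 and Ccnd3 held 0 in the quartile comparison, with ratios between -0.05 and 0.12. Alternatives in which their intervals left out 0 are counted in the last section.

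**Figure D5:**
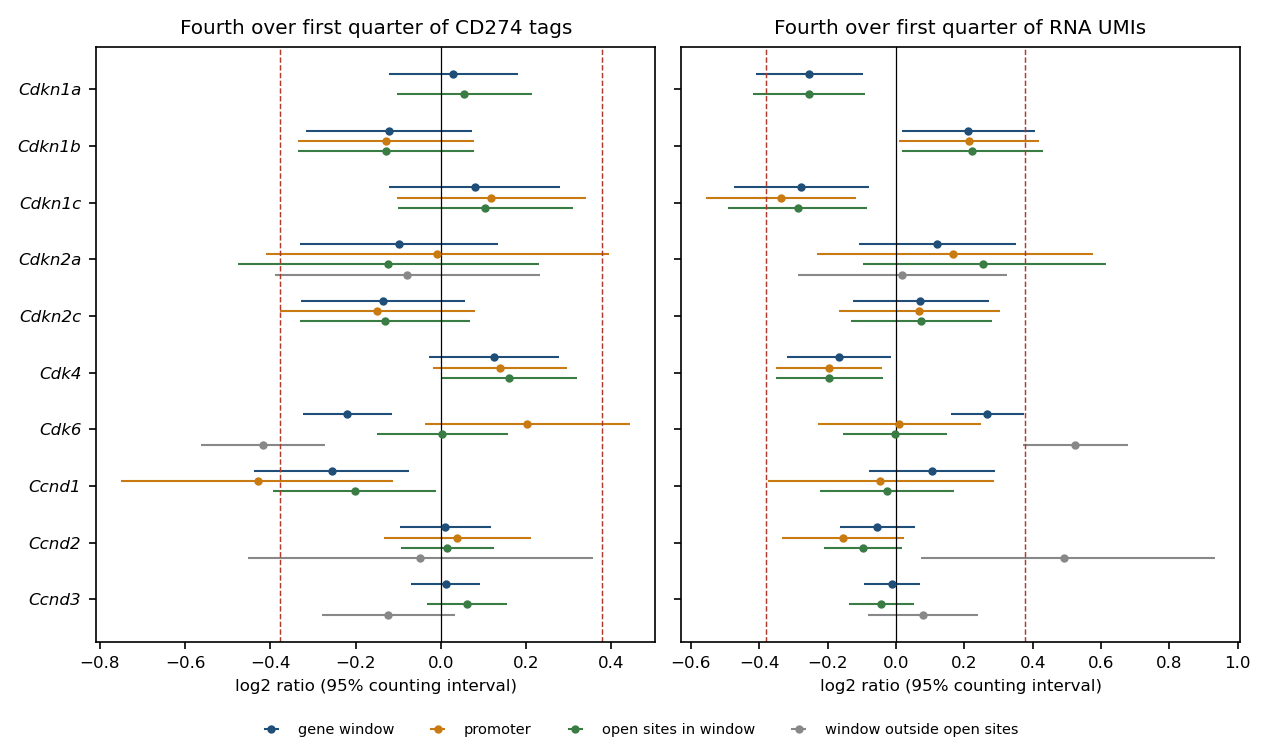
Log2 ratios of the highest over the lowest quartile by CD274 tags (left) and RNA UMIs (right), for each gene and region with at least 200 fragments over both quartile groups; bars are 95% counting intervals and dashed lines mark 1.3-fold. Cdk6 left 0 over the window and outside open sites but not in its promoter or open sites, and the Ccnd1 promoter stood at -0.43 by CD274.

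Other cell cycle genes were given by a list of 26: other INK4 inhibitors, S-phase and mitotic cyclins and their kinases, retinoblastoma family members, E2F and DP factors, degradation factors and Mki67, a marker of cycling cells. With all kept cells, no window differed by 1.3-fold in either comparison. By CD274, 8 of 26 window intervals lay below 0, against 7.48% of all genes, and 0 lay above, against 6.92%. The ratios ran from -0.37 for Tfdp1, the DP partner of E2F factors (-0.54 to -0.20), to 0.09 for Fbxw7, which marks cyclin E for degradation (-0.02 to 0.20). The other 7 below 0, named after their values were seen, were Cdk1, Ccne2, Rbl1, E2f2, E2f4, E2f8 and Mki67. Over promoters 6 of 25 lay below 0, against 3.57%, with Ccnb2 lowest at -0.38, and 0 lay above, against 6.91%.

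Without cells with excess overlaps, 6 of the 26 windows lay below 0, against 6.8% of all genes, and 5 of 25 promoters, against 3.34%. Here 2 windows were at least 1.3-fold lower, Tfdp1 at -0.41 and E2f4 at -0.38, against 1.49% of all genes, and 1 promoter, Tfdp1 at -0.42, against 1.11%. The promoter of Fbxw7 was the 1 with an interval above 0, at 0.18 (0.00 to 0.36), against 6.04%. The median window ratio of the list was -0.05 with these cells and -0.08 without them. The part of the marker lists given above in these ratios was not tested. By RNA, 3 windows lay above 0, against 7.97% of all genes, and 1 below, against 13.8%, from E2f5 at -0.24 to Skp2, part of the ligase that degrades the Cdkn1b protein, at 0.28. Over promoters 3 of 25 lay below 0, against 22.2%, from Fbxw7 at -0.31 to Ccne2 at 0.20. Mki67 stood at -0.14 (-0.31 to 0.04) over its window and -0.20 (-0.39 to -0.01) over its promoter. Its promoter ratio without cells with excess overlaps was -0.20 (-0.40 to 0.01). Without cells with excess overlaps, 1 window lay above 0, against 7.51%, and 0 below, against 12.8%, from Ccna2 at -0.16 to Tfdp1 at 0.29. Over promoters 1 then lay below 0, Fbxw7 at -0.33, against 21.8%.

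Of the 12 antibodies read on these cells, CD61, CD27 and CD357 gave a further view of Cdk6, added after the data had been seen. CD61, an integrin chain of platelets and megakaryocytes, split the cells into a highest group of 779 and a lowest group of 727, and the Cdk6 window stood at 134.0 and 165.6 FPM, a log2 ratio of -0.30 (-0.42 to -0.19). The interval in open sites also left out 0, at -0.26 (-0.43 to -0.10), the 1 of 10, against 7.97% of 12541 genes. The promoter ratio was -0.25 (-0.51 to 0.01). Outside open sites Cdk6 stood at -0.35 (-0.51 to -0.18). There it was the 1 of 3 genes with enough fragments whose interval left out 0, against 10.1%. Cdk6 was the 1 of 10 windows whose interval left out 0, against 9.11% of 14384 genes, and none passed 1.3-fold, against 1.68%. Cells with excess overlaps made up 13.6% of the CD61-high and 5.50% of the CD61-low group, and without them the window ratio was -0.33 (-0.46 to -0.20). The window of Ccnd3 (-0.11, -0.20 to -0.01) and the promoter of Ccnd2 (-0.23, -0.45 to -0.02) then also had intervals that left out 0. The share of all genes was not computed without these cells. With all kept cells it was 9.11% of windows and 7.31% of promoters. Median CD274 counts were 22 and 16, and their part in the Cdk6 ratio was not tested.

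CD27, a receptor of the TNF family, was tagged in 2051 of the 3629 cells. Their Cdk6 promoter ratio to untagged cells was -0.25 (-0.41 to -0.08), the 1 of 9 promoters whose interval left out 0, against 6.28%. Their window ratio was -0.11 (-0.18 to -0.03), the 1 of 10 windows whose interval left out 0, against 6.65% of all genes. In open sites the Cdk6 ratio was -0.17 (-0.28 to -0.06), again the 1 of 10, against 6.6%. Outside open sites it was -0.04 (-0.15 to 0.06), with an interval that held 0. Cells with excess overlaps made up 8.34% of tagged and 6.27% of untagged cells, and without them the window ratio was -0.13 (-0.21 to -0.05). By CD357 (968 high and 1200 low cells) the Cdk6 window ratio was 0.11 (0.01 to 0.21), again the 1 of 10, against 8.23%, and the promoter ratio was -0.03 (-0.24 to 0.19). Leaving out cells with excess overlaps kept 852 of the 968 CD357-high and 1140 of the 1200 CD357-low cells, and the window ratio was then 0.08 (-0.03 to 0.19), with an interval that held 0. Median CD274 counts were 22 and 17. No window passed 1.3-fold by CD27, against 0.46% of genes, or by CD357, against 0.964%. A platelet-type gate was set here at the median counts of 4 antibodies, with 342 cells above the median of CD61 and CD274 and not above that of CD357 and CD27, and the 61 cells of the opposite pattern were set against it. In this comparison 5 of the 10 genes had enough fragments. None of the 5 passed 1.3-fold, against 13.6%, and 1, Cdk6 at -0.37 (-0.67 to -0.05), had an interval that left out 0, against 6.63%. Cdk6 was at -0.64 (-1.05 to -0.20) outside open sites and at -0.09 (-0.54 to 0.41) in them. Outside open sites Cdk6 and Ccnd3 (-0.44, -0.88 to 0.04) were the 2 genes with enough fragments and both passed 1.3-fold, against 16.6% of 694 genes. Cells with excess overlaps made up 7.02% of the gate and 1.64% of its opposite, and without them the Cdk6 window ratio was -0.36 (-0.67 to -0.03). All these splits share cells, so they are not independent of each other.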

How the data were processed

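ATAC, gene expression and antibody tags of 1 pool of 24-month-old LT-HSCs were read in 3 libraries. The authors aligned the ATAC and RNA libraries with Cell Ranger ARC 2.0.2 to mm10, which collapses duplicate read pairs to 1 fragment, and counted antibody tags with CITE-seq-Count (version not given in the sources used here). Deposited values are unnormalized counts: fragments, RNA totals per barcode and tags per antibody. Doublets were not removed. The 32851 RefSeq promoters matched the GRCm38 genome, and 7 of the 10 genes had an entry.

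Genes were the 21911 protein-coding genes of GENCODE M21. The gene start was the outermost start of basic-set transcripts. Open sites were runs of 50 bp bins whose Tn5 ends, summed over 3 bins, reached 10 times the genome mean, joined within 150 bp and at least 200 bp wide (55758 sites). Log2 ratios had 0.5 added to each count, were scaled by nuclear fragments, and used genes with at least 200 fragments over both groups. Intervals were exact Poisson, binomial or conditional binomial. PCR copies and cells are not independent samples, so these cover counting error only. Ratios and intervals were tested on simulated Poisson counts, the model that the intervals assume. That test cannot cover the spread over cells beyond Poisson given above.

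The genes, pathway list, marker lists and 12 motifs were chosen with earlier results of these data known. Genes named were the 10, the highest and lowest of the pathway list and those past 1.3-fold, with overlapping genes as neighbours; 7 further pathway genes were named after their values had been seen. Alternatives changed the cell filter, region, scaling and grouping; the windows outside open sites, other antibodies and the most used starts were added after the data had been seen. Values were computed in Python 3.11.15 (scipy 1.17.1, numpy 2.4.6, pandas 2.3.3, matplotlib 3.10.9). Motifs searched on both strands were GATAA for Gata1 and its relatives, TGTGGT for Runx, CCGGAAG for Ets, TGACTCA for AP-1, TGACGTCA for Creb, CACGTG for Myc, TTTGGCGC or TTTCGCGC for E2F, TGTTTAC for forkhead, CCAAT for NF-Y, GGGCGG for Sp and TTCNNNGAA for Stat factors.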

Additional observations from a re-analysis of the deposited data

How the results depend on the processing

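No paired analysis was possible because each library is 1 sample of 1 pool of cells. By CD274, 0 of the 10 genes passed 1.3-fold over the window, and 1 did over the promoter, the promoter at the most used start, or the window outside open sites. The genes past 1.3-fold among all tested numbered 335, against 170 for groups split at the median, 145 for cells with at least 1 fragment, 1471 with a minimum of 20 fragments, 125 among cells with at least 50 tags, where 3 of the 10 genes had enough fragments, and 589 outside open sites. By RNA, 0 of the 10 became 1 when scaled by promoter fragments and 2 outside open sites, and 543 among all genes became 261 for groups split at the median, 988 scaled by promoter fragments, 286 within 10 bins of ATAC fragments, 334 within those bins without excess overlaps, 1850 with a minimum of 20 fragments, 210 by RNA UMIs per ATAC fragment and 1077 outside open sites. The cause was not tested. The Ccnd1 ratio by CD274 stayed below 0 in all 12 alternatives that could be computed, from -0.43 to -0.20, each with an interval that left out 0. That of Cdk6 ran from -0.42 to 0.20 by CD274 and from -0.04 to 0.52 by RNA over 14 alternatives each, with an interval that left out 0 in 9 of each. The CD274 intervals of Cdkn1b and Cdkn2c left out 0 with groups split at the median, and that of Ccnd3 in cells with at least 50 tags. By RNA, intervals left out 0 in 2 of 13 alternatives for Ccnd1, with ratios from -0.05 to 0.25. They did so in 4 of 14 for Ccnd2 (-0.17 to 0.49) and 2 of 13 for Ccnd3 (-0.24 to 0.10). The counts were 1 of 14 for Cdkn2a (-0.04 to 0.25) and 0 of 13 for Cdkn2c (-0.03 to 0.18). The 8 promoters above the median gene were 7 when short fragments alone were counted, and the 38 open sites numbered 27 to 51 under other thresholds.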
